A study of Homo sapiens with 4 samples.

Results

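SCARB1 encodes SR-BI, the receptor through which cells take cholesteryl esters from high-density lipoprotein (HDL) without degrading the particle. The accessible chromatin of its locus was examined with FAIRE-seq, a method in which formaldehyde-fixed chromatin is extracted with phenol so that nucleosome-free DNA is enriched and sequenced. All FAIRE sites within 100 kb of the SCARB1 gene body (chr12:125261402-125367214, minus strand, GRCh37) were taken. There were 14 of 34423 sites in cells with basal SF-1 expression and 21 of 31219 sites in cells overexpressing SF-1, which form 25 separate regions. The locus was chosen because earlier work on these lists had shown many sites called only upon overexpression, so the numbers of sites by class are a description and carry no test.

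Adrenocortical cells make steroids from cholesterol, and HDL-derived cholesteryl ester taken up by SR-BI is one of their main sources, beside uptake of low-density lipoprotein and synthesis. SR-BI is abundant in the adrenal cortex, the gonads and the liver. SF-1 (NR5A1) is a nuclear receptor that binds as a monomer to a half-site preceded by a short extension and activates genes of steroid production, SCARB1 among them.

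The cells were H295R/TR SF-1, a subclone of the H295R adrenocortical tumor cell line in which doxycycline induces SF-1. The basal group was cultured without induction and the overexpression group received doxycycline for 3 days, so an effect of doxycycline and one of SF-1 cannot be told apart. Each group had 1 FAIRE library and 1 input DNA library, and the input libraries were not analysed here. Differences between the lists therefore have no replicates behind them, the intervals given reflect counting error alone, and the sequencing depth is unknown. Where a list lacks a site, the site was not called, and its chromatin may still be open. Sites with an overlap of 1 bp or more between the lists are called shared, and basal-only or overexpression-only otherwise. The place of a site is its number in the deposited list, given as a percentile of the list length, where low values come first. What set this order was not stated.

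The 5 regions with the SF-1 motif and the overexpression-only site of the body with only its core are shown first. All are on the plus strand of GRCh37, whereas SCARB1 is transcribed from the minus strand. Capitals mark CAAGGTCA or CAAGGCCA, the 8-letter SF-1 motif, or, where only these letters occur, its 7-letter core AAGGTCA or AAGGCCA. Matches on the minus strand read TGACCTTG, TGGCCTTG, TGACCTT or TGGCCTT. The Intron 9 site is shared and is given as in the overexpression list, whereas the other sites are overexpression-only. Of the Upstream site, 300 of 449 bp are given. The core was present in 8 regions of the locus in all. Not shown are the shared site chr12:125331801-125331999 and the overexpression-only site chr12:125394701-125394899, which also have only the core.
Upstream site, chr12:125351448-125351747: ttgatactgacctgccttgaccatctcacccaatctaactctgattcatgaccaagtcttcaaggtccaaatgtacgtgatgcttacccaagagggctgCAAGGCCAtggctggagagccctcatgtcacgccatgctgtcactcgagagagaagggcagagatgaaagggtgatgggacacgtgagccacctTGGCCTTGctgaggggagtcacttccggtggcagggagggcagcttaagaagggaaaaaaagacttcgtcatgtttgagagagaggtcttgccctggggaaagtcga
Intron 1 distal site, chr12:125306501-125306599: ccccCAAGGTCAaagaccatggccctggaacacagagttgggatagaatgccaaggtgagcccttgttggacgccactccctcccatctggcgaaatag
Intron 1 end site, chr12:125304101-125304399: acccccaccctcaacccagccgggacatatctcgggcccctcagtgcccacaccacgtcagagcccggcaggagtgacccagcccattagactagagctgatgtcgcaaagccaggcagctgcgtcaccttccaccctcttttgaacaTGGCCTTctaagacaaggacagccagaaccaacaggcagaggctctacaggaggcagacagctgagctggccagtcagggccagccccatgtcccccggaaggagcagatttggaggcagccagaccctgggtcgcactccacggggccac
Exon 4 site, chr12:125298701-125298999: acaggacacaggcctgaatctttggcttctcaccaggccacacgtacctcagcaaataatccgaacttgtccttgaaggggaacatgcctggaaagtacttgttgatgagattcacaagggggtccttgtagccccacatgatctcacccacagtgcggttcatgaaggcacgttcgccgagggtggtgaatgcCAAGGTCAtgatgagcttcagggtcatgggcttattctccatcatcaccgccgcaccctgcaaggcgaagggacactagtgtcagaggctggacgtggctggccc
Intron 9 site, chr12:125275751-125275949: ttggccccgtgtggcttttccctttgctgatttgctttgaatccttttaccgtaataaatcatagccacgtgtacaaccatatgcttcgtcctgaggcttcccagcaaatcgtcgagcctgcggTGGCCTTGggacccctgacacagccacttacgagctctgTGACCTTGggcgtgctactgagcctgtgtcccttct
Downstream site, chr12:125217551-125217799: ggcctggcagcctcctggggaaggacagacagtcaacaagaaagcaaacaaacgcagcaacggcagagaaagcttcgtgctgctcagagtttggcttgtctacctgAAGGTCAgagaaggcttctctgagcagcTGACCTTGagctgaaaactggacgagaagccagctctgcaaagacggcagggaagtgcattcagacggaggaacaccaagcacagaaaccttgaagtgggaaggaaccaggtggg

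The start of the canonical SCARB1 transcript (position 125348410) was not covered by a site of either list. Of the canonical starts of 18922 protein-coding genes, 31.6% were covered by a basal and 34.1% by an overexpression site, and 44.4% and 46.3%, respectively, had some part of a site within 2 kb, which SCARB1 had not. Nearest to the SCARB1 start inside the gene was a shared site in intron 1, which was chr12:125346151-125346399 (249 bp) in the basal list and chr12:125346101-125346399 (299 bp) in the overexpression list. Its centre lay 2135 bp (basal) or 2160 bp (overexpression) from the start, and its place was at percentile 45.3 and 31.7, respectively. Its edge towards the start, at position 125346399 in both lists, lay only just outside the limit of 2 kb. On the other side, the Upstream site (chr12:125351351-125351799, 449 bp) was centred 3165 bp before the canonical start. It was called only upon overexpression and stood at percentile 9.84, the earliest place among the 21 overexpression sites of the locus. The annotated gene extends 18804 bp further upstream in transcripts without a coding sequence, so that the Upstream site lies within the annotated gene span but outside the canonical transcript.

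Intron 1, which spans 45.9 of the 87 kb of the canonical transcript, held 3 basal sites and 6 overexpression sites. The basal sites of this intron were all shared. In addition to the site close to the start, there was a shared site 16.6 kb into the gene in the basal list (chr12:125331751-125331949, percentile 68.7), which stood at percentile 70 in the overexpression list as chr12:125331801-125331999. The shared site 25.3 kb into the gene was chr12:125322851-125323299 (449 bp, percentile 22.8) in the basal list. It was chr12:125322801-125323299 (499 bp, percentile 49.5) in the overexpression list. These 3 sites are therefore present at both SF-1 dosages, at places that range from early to late.

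In this intron 3 sites were called only upon overexpression. The first, chr12:125327601-125327849 (249 bp), lay 20.7 kb from the start between the shared sites, at percentile 45.9. The Intron 1 end site (299 bp, percentile 46.6) lay 44.2 kb from the start and 1997 bp before the start of a shorter annotated coding transcript. The Intron 1 distal site was the narrowest at 99 bp, lay 41.9 kb from the start and stood late, at percentile 93.2.

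In the remainder of the gene there were 2 regions. The Exon 4 site (299 bp, percentile 39.8) covered all of the coding exon 4 (positions 125298748 to 125298951) with part of both flanking introns, 49.6 kb from the start. It was overexpression-only. A transcript with a retained intron is annotated to start 217 bp from its centre. The Intron 9 site was shared. It was wide and early in the basal list (chr12:125275651-125276099, 449 bp, percentile 9.9) and narrower and later in the overexpression list (199 bp, percentile 65.7). It also lies within an annotated long non-coding RNA gene on the opposite strand. No site of either list was centred in introns 2 to 8 or 10 to 12.

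Beyond the 3′ end of SCARB1, 4 overexpression-only sites and 1 shared site were called, with 0 basal-only sites. The closest was chr12:125256551-125256699 (149 bp, percentile 73), 91.8 kb from the start. The others called only upon overexpression were chr12:125230501-125230699 (199 bp, percentile 57.4), the Downstream site (249 bp, percentile 32.2), 131 kb from the start, and chr12:125169301-125169399 (99 bp, percentile 99.5). The shared site of this side was chr12:125205201-125205649 (449 bp, percentile 7.72) in the basal list and chr12:125205351-125205649 (299 bp, percentile 76) in the overexpression list.

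Upstream of the annotated gene span the arrangement differed. Here lay all 4 basal-only sites of the locus, with 2 overexpression-only sites and 5 shared sites. The basal-only sites included chr12:125389401-125389599 (199 bp, percentile 85.5), chr12:125423201-125423399 (199 bp, percentile 97.9) and chr12:125424101-125424299 (199 bp, percentile 72.3). All 4 stood in the last part of the basal list, between percentiles 72.3 and 98.1. The overexpression-only sites were chr12:125394701-125394899 (199 bp, percentile 59.9), 46.4 kb before the canonical start, and chr12:125456601-125456749 (149 bp, percentile 96.1), within DHX37.

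Of the shared sites of this side, the one nearest to SCARB1 was chr12:125391351-125391599 (249 bp, percentile 19.3) in the basal list and chr12:125391351-125391549 (199 bp, percentile 48.8) in the overexpression list. A group of 3 shared sites stood in a cluster of 5 basal and 3 overexpression sites over 2.3 kb beyond the 3′ end of DHX37.

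**Figure D1:**
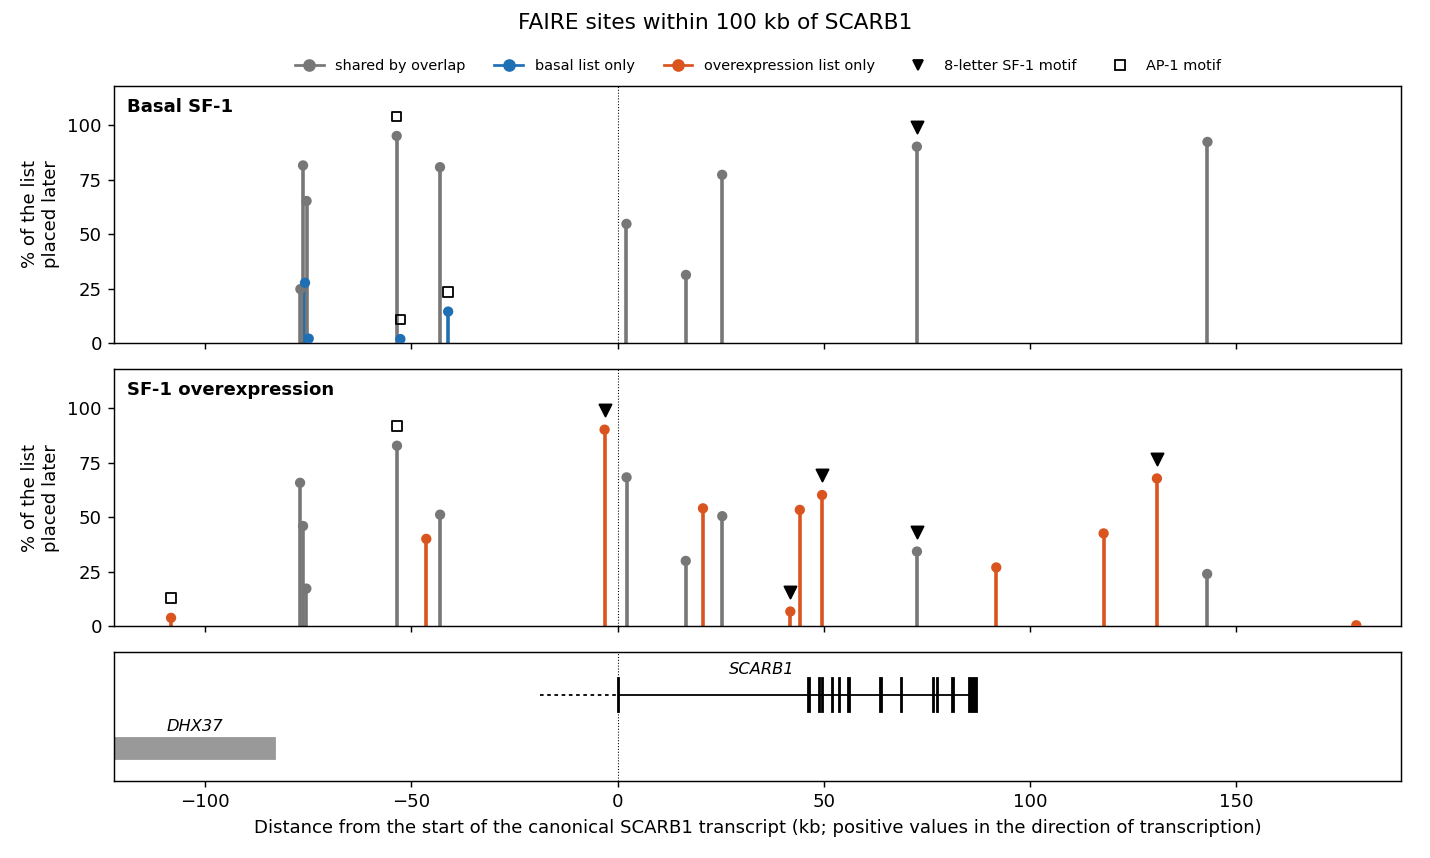
Each line is a FAIRE site, placed by the distance of its centre from the canonical SCARB1 start (kb, positive in the direction of transcription), with a height that gives the percent of its list placed later, in the basal list (top) and the overexpression list (middle), above the models of SCARB1 and DHX37 (bottom; dashed, annotated span without coding sequence). The 4 basal-only sites (blue) are all upstream, whereas 9 of the 11 overexpression-only sites (orange) lie in the SCARB1 body or beyond its 3′ end.

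In all, 11 of the 21 overexpression sites within 100 kb were overexpression-only, which is 52.4% (exact 95% interval 29.8 to 74.3%), against 40.3% of the whole overexpression list. Of the 14 basal sites, 4 were basal-only, which is 28.6% (8.39 to 58.1%), against 45.8% of the whole basal list. Both intervals include the value of the whole list. Within 10 kb of the gene there were 4 basal sites, of which 0 were basal-only (interval up to 60.2%), and 10 overexpression sites, of which 6 were overexpression-only (60%, 26.2 to 87.8%). In the body alone, 4 basal and 9 overexpression sites correspond to 3.78 and 8.51 sites per 100 kb. The ratio of overexpression to basal sites was thus 1.5 within 100 kb and 2.5 within 10 kb, against 0.907 for the whole lists. The sites just inside the limit of 100 kb lay 92 kb downstream (overexpression-only) and 89.4 kb upstream (overexpression-only) of the gene. The next sites outside lay 155 kb and 106 kb away and were shared.

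The overexpression-only sites of the locus did not all stand late in the list. Their places ran from percentile 9.84 to 99.5 with a median of 57.4 (interval 32.2 to 96.1). The median for all 12585 overexpression-only sites was 67.8, which this interval includes. Within 10 kb of the gene the median of the 6 sites was 46.3. Their widths ran from 99 to 449 bp with a median of 199 bp within 100 kb and 274 bp within 10 kb, against 199 bp for the class. Conversely, the 4 basal-only sites had a median percentile of 91.7, against 67.4 for their class. The median GC content was higher than in the whole lists in both condition-only classes, though few sites were compared. It was 54.8% for the 11 overexpression-only sites (range 36.2 to 63.3%) and 46.5% for all sites of the class. For the 4 basal-only sites it was 48.1% (range 40.7 to 59.8%), against 40.5% for their class. For the shared sites it was 54.1% against 53.5% in the overexpression list, and 52.2% against 53.2% in the basal list. The sequence within 100 kb of SCARB1 had 50.9% GC against 40.8% for chromosome 12. The part of base composition in the site numbers was not tested.

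To see whether sites present at both dosages kept their rank, the 10 overlapping pairs of the locus were compared by place. Of these, 8 stood later in the overexpression list, against 53.2% of all 18704 overlapping pairs. The pairs of the locus moved by a median of 28.1 percentile points towards the end of the list (quartiles 4 and 44.9), whereas all pairs moved by a median of 0.902 points (quartiles -11.2 and 15.8). A move of at least 25 points, found in 16% of all pairs, was seen in 6 of the 10. The largest were those of the shared site beyond the 3′ end, 68.3 points, which only 0.706% of all pairs reached, and of the Intron 9 site, 55.8 points, reached by 2.6%. The shared site in intron 1 next to the start moved 13.6 points in the other direction, and one of the pairs beyond the 3′ end of DHX37 moved 41 points in that direction. The overexpression site was narrower in 6 of the 10 pairs, against 37.3% of all pairs. How far a pair can move depends on its basal place, since early sites have more room to move later. The shared basal sites of the locus had a median percentile of 21, against 32.7 for all shared basal sites. The 2 largest moves began at percentiles 7.72 and 9.9. The comparison with all pairs was not matched for basal place. Neighbouring sites share their surroundings and are not independent of each other.

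**Figure D2:**
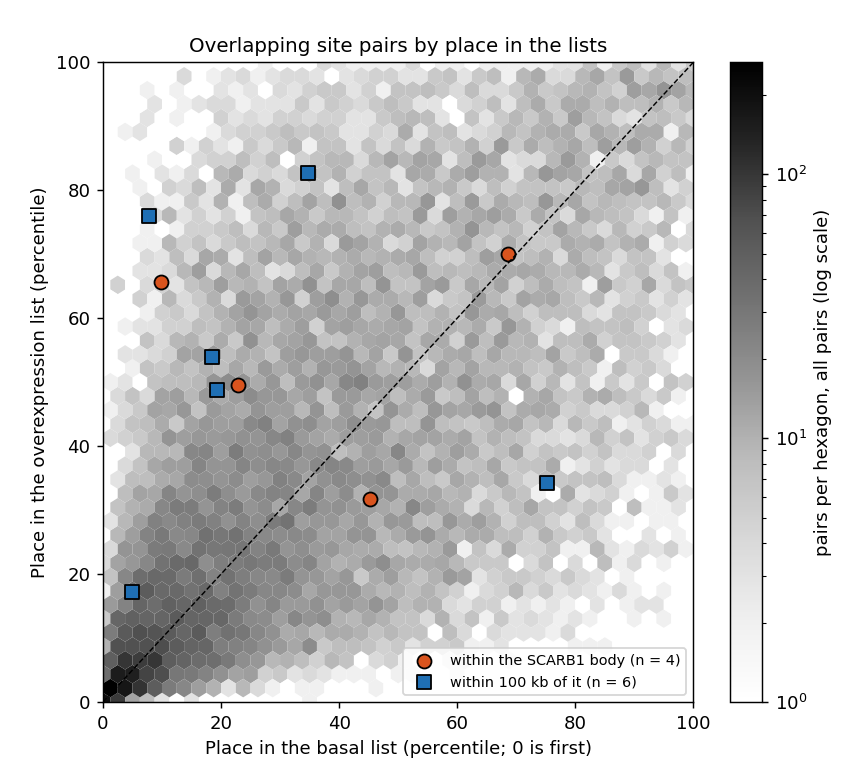
Place of each overlapping pair in the basal (horizontal) and overexpression (vertical) list as percentiles, where 0 is the first site. Grey hexagons count all 18704 pairs on a log scale, circles are the 4 pairs in the SCARB1 body and squares the 6 others within 100 kb. Of the 10 pairs, 8 lie above the dashed line of equal place, that is, later in the overexpression list.

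Sequence motifs were then searched on both strands of each site. The 8-letter SF-1 motif was present in 5 of the 25 regions (20%, 6.83 to 40.7%). Within 10 kb of the gene it was present in 4 of 10 regions (40%, 12.2 to 73.8%). In the whole lists it occurred in 12.7% of basal and 12.6% of overexpression sites, which the first interval includes and the second includes narrowly. By class, it was found in 4 of 11 overexpression-only sites (10.9 to 69.2%), against 14% of this class in the whole list. It was found in 1 of 10 shared sites of the overexpression list (0.253 to 44.5%), against 11.7% of that class. Of the 4 basal-only sites, 0 had it (0 to 60.2%), against 13.4%. With the 7-letter core, 6 of the 11 overexpression-only sites had a match (23.4 to 83.3%), against 26.3% of the class. The core was also in 2 of 10 shared sites of the overexpression list (2.52 to 55.6%), against 20.7% of that class. It was in 0 of 4 basal-only sites (0 to 60.2%), against 20.2%. Within 10 kb of the gene, 4 of 6 overexpression-only and 2 of 4 shared sites had the core. Each of these intervals includes the share of its class. The control motif GACATGCA or GACACGCA, the same letters in another order, was in 0 of 25 regions, and in 1.02% of the overexpression list. For so rare a motif, 0 of 25 cannot be told apart from this share, so it gives no contrast with the SF-1 motif.

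The matches are arranged as follows in the sequences shown above. The Upstream site and the Intron 9 site each had 2 copies of the 8-letter motif, 94 bp apart in the former, in opposite orientations, and 39 bp apart in the latter, in the same orientation. Both copies of the Intron 9 site are within the overlap of its basal and overexpression intervals. The Exon 4 site, the Intron 1 distal site and the Downstream site had 1 copy each, of the form CAAGGTCA. In the Exon 4 site the copy (positions 125298895 to 125298902) lies within the coding exon. The Downstream site also had a core match on the opposite strand. The Intron 1 end site had a core match 2 bp from its centre, but no 8-letter match. Of sites as wide as the Upstream site, 12.3% held the 8-letter motif in the overexpression list. For the width of the Exon 4 site this was 13.9%, for that of the Downstream site 14.2% and for that of the Intron 1 distal site 5.98%.

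The 8-letter motif was also counted in the sequence between the sites. It occurred 30 times in the 106 kb gene body, and 6 of these copies (20%, 7.71 to 38.6%) were in a FAIRE site of either list. The interval treats copies as independent, although the Upstream site and the Intron 9 site held 2 each. The gene was also chosen for its many sites, so this share is a description. On chromosome 12 as a whole, 411 of 14660 copies (2.8%) were in a site. Sites covered 2.73% of the SCARB1 body and 0.6% of chromosome 12. The motif was also denser here, at 28.4 copies per 100 kb of body against 11.2 on chromosome 12, but so was the control motif, at 9.45 against 3.66. Most copies of the motif in SCARB1, 24 of 30, were thus outside the sites called in these libraries.

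Motifs of other factors were counted in the same way. The AP-1 motif (TGACTCA or TGAGTCA, which are reverse complements of each other), recognised by FOS and JUN dimers, was found in 4 regions, all upstream of the annotated gene span. It was present in 2 of the 4 basal-only sites (50%, 6.76 to 93.2%), an interval that includes the 7.76% of that class. The other regions were 1 shared site and the overexpression-only site within DHX37. Of the 10 regions within 10 kb of SCARB1, 0 had it, against 6.95% of all basal and 5.59% of all overexpression sites. With only 10 regions, 0 cannot be told apart from these shares. The AP-1 motif is shown in capitals for the basal-only site nearest to SCARB1, where it lies 6 bp from the centre.
Basal-only site, chr12:125389401-125389599: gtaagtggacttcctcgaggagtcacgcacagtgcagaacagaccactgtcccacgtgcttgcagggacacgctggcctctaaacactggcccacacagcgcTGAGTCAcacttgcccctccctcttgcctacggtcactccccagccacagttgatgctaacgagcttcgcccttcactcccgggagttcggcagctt
The motif of CTCF, a factor that binds insulators, was found with 1 mismatch allowed in 1 region, the overexpression-only site just beyond the 3′ end of SCARB1, where the match, in capitals, is on the minus strand. It is present in 12.8% of all overexpression-only sites.
CTCF-type site, chr12:125256551-125256699: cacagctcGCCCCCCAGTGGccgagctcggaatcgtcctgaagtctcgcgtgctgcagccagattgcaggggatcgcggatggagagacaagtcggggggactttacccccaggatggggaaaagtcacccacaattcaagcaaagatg
The GATA motif (AGATAA or TGATAA) was present in 5 of 25 regions, 1 of them the Upstream site, and in 19.3% of the overexpression list. A match of letters is a description and does not show that a factor was bound.

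SCARB1 was set beside 5 protein-coding genes within 500 kb by the sites within 10 kb of each, and none of these 5 shared its pattern. DHX37, an RNA helicase of ribosome assembly 64.2 kb upstream of the SCARB1 span, had 4 shared, 2 basal-only and 1 overexpression-only site, and its start was covered by a shared site at percentile 18.6 (basal) and 17.8 (overexpression). BRI3BP had 1 shared site, which is the one over the DHX37 start. AACS, which activates acetoacetate for lipid synthesis, and TMEM132B each had 1 overexpression-only site. RFLNA had 1 basal-only site. Thus 0 basal-only and 6 overexpression-only sites were found at SCARB1, whereas these 5 genes had between 0 and 2 basal-only and between 0 and 1 overexpression-only sites. In its body, DHX37 had 2.36 basal and 4.73 overexpression sites per 100 kb, that is fewer than SCARB1 in both lists.

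**Figure D3:**
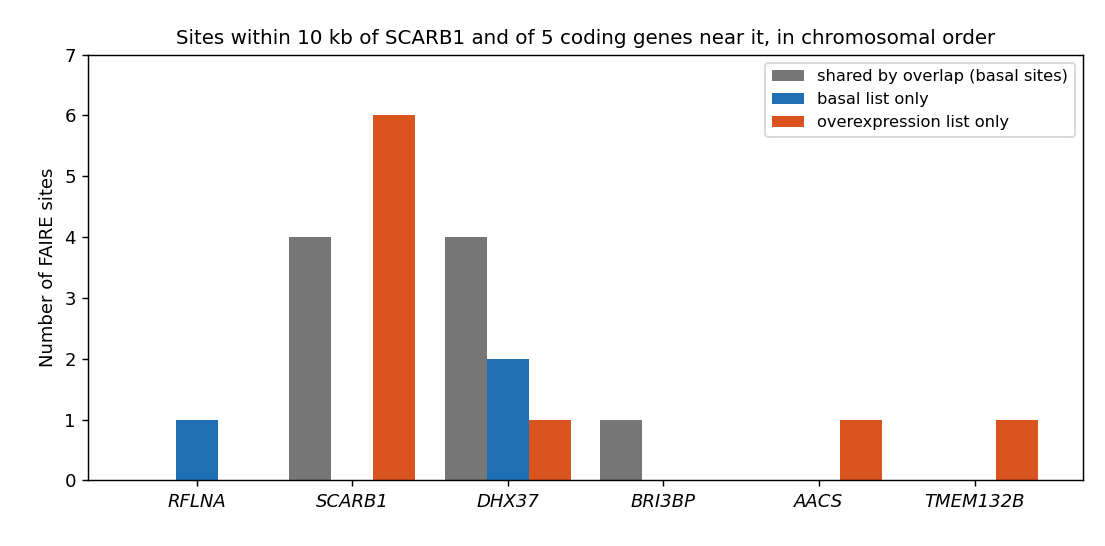
Number of FAIRE sites within 10 kb of SCARB1 and of 5 protein-coding genes within 500 kb of it, by class (grey, shared; blue, basal-only; orange, overexpression-only). SCARB1 has 4 shared, 0 basal-only and 6 overexpression-only sites, whereas none of the 5 other genes shown has more than 1 overexpression-only site.

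Since no test between single libraries is possible, SCARB1 was set among all protein-coding genes. At least 6 overexpression-only and 0 basal-only sites within 10 kb were found at 5 of 20163 genes (0.0248%), SCARB1 included. The others, named after their values were seen, were ITGA9 (an integrin subunit, 8 overexpression-only sites over 371 kb), ZMIZ1 (a transcriptional coactivator, 7 over 248 kb), HAVCR2 (an immune checkpoint receptor, 6 over 57.4 kb) and IQSEC1 (an exchange factor for ARF proteins, 6 over 386 kb). Among the 5291 genes with bodies of 50 to 200 kb the share was 0.0378%, 2 genes. For the balance of overexpression-only minus basal-only sites, 12 genes reached the value of SCARB1, 6, or more, whereas 84 genes had an excess of basal-only sites at least as large. More overexpression-only than basal-only sites were found at 23.4% of genes and the reverse at 25.3%. Because SCARB1 was chosen for this pattern, its rank is a description.

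**Figure D4:**
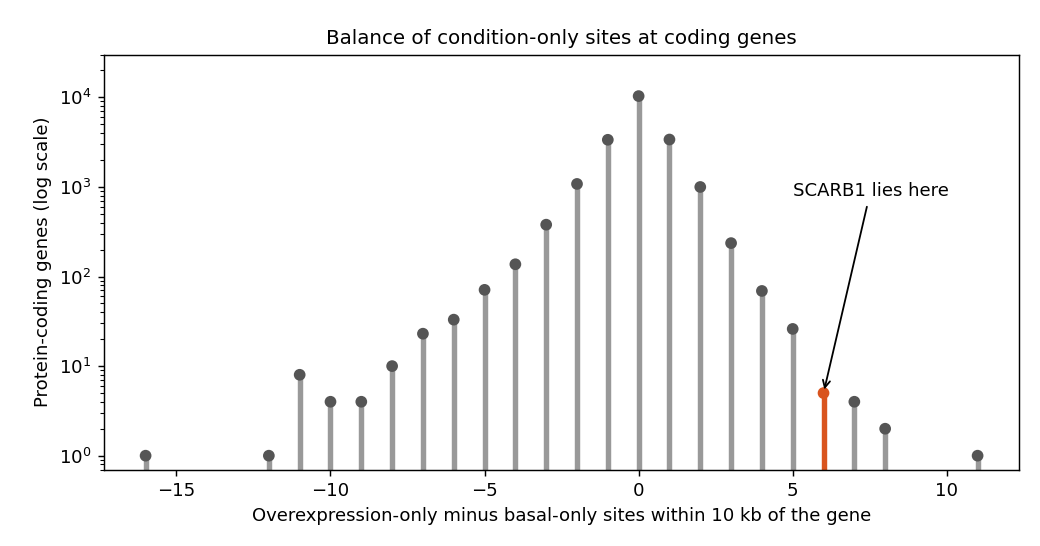
Overexpression-only minus basal-only sites within 10 kb of each of 20163 protein-coding genes (horizontal) and the number of genes with each value (vertical, log scale). SCARB1 has the value 6 (orange), which 12 genes reach or exceed.

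The genes most like SCARB1 were taken by the sum of differences in the numbers of shared, basal-only and overexpression-only sites, which for SCARB1 are 4, 0 and 6. IQSEC1 had the same numbers, and was the only gene that did. GLI2, a transcription factor of hedgehog signalling, had 4, 1 and 6. VDR, the vitamin D receptor, had 3, 0 and 5, ABCC3, an organic anion transporter, had 4, 0 and 4, and COL27A1, a fibrillar collagen gene, had 4, 1 and 5. These last 3 genes are among 12 at a distance of 2.

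The absence of basal-only sites around SCARB1 extended beyond the gene. Between the nearest basal-only sites on either side there was a stretch of 386 kb with 0 basal-only, 7 shared basal and 13 overexpression-only sites. This stretch was examined after the values of the locus were seen. At least 13 overexpression-only sites were present in 11 of 15743 stretches between neighbouring basal-only sites (0.0699%). Of the 5549 stretches of 100 to 400 kb, only that of SCARB1 had as many, the median was 1 and the next highest value was 11. The first share covers stretches of all lengths, many of them too short to hold many sites. In the narrower class, the length of the SCARB1 stretch is near the upper limit. Neither comparison was adjusted for length. Outside the window of 100 kb the stretch held 4 further overexpression-only and 2 shared sites. The limit of the stretch depends on the overlap rule. When shared sites had to overlap by 50% of both, the stretch was 272 kb long with 8 overexpression-only sites, a number reached by 0.298% of stretches. In the upper 50% of each list it had 4, reached by 4.86%. When sites within 500 bp counted as shared, it still had 13 but was 872 kb long, and thus outside the class of 100 to 400 kb.

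**Figure D5:**
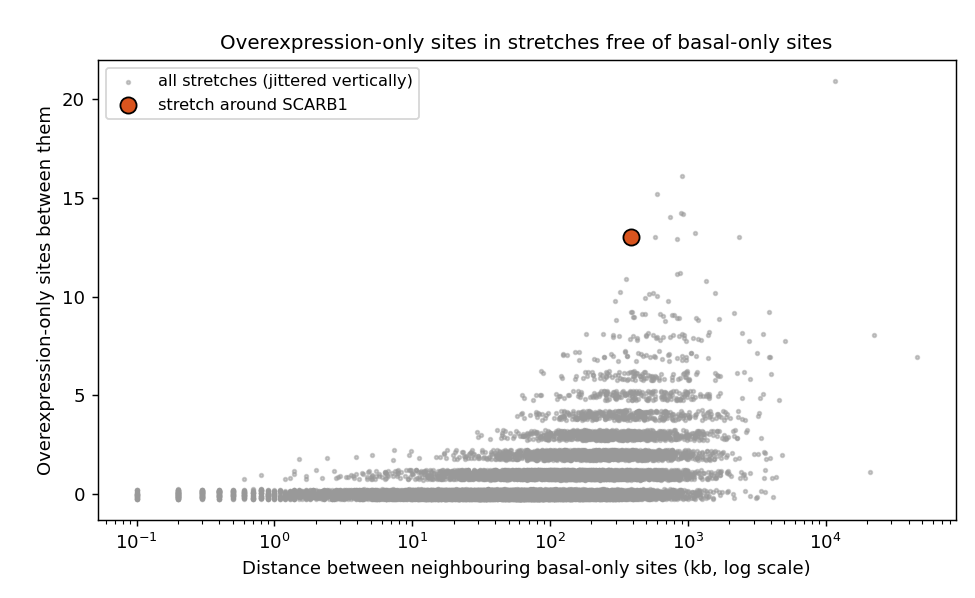
Each point is a stretch between neighbouring basal-only sites, by its length (horizontal, kb, log scale) and the number of overexpression-only sites in it (vertical, jittered except for SCARB1). The stretch around SCARB1 (orange) is 386 kb long and holds 13, the highest number among stretches of 100 to 400 kb.

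SCARB1 was finally compared with other genes of cholesterol supply, in a list of 32 genes for uptake, lysosomal release, storage, transport, efflux and their regulators, all of which were matched. An excess of overexpression-only sites within 10 kb was present at 11 genes (34.4%, against 23.4% of all genes), an excess of basal-only sites at 8 (25%, against 25.3%), and equal numbers at 13, of which 5 had no site of either list. Without SCARB1, which was chosen for its overexpression-only sites, the excess of such sites was present at 10 of 31 genes. The median balance was 0 in the list and 0 over all genes. Together these genes had 31 overexpression-only and 31 basal-only sites, 6 of the former at SCARB1. An excess of at least 3 sites was found at 3 genes, of which SCARB1 was the only one with an excess of overexpression-only sites. CD36, a fatty acid and lipoprotein receptor of the same class B scavenger receptor family, had 2 shared, 8 basal-only and 2 overexpression-only sites. LIPA, the lysosomal acid lipase that releases cholesterol from low-density lipoprotein, had 5 shared, 5 basal-only and 2 overexpression-only sites. Nothing particular to the list follows from these counts.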

How the data were processed

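The series comprised 4 samples of H295R/TR SF-1 cells, and the FAIRE library of each condition was used. Both files were genome browser tracks giving the position, peak number, score and strand of a site. The score that the authors deposited was 1000 on every line and held no information, so the peak number was used as the place of a site. Submitters' processing notes name hg19 and CASAVA 1.8. The study's methods name ELAND for immunoprecipitated DNA, whereas the aligner, caller and threshold of the FAIRE libraries are not given in the sources used here. All starts lay on a grid of 50 bp and no nuclear site ran past a GRCh37 chromosome end. Coordinates are 1-based, with the start taken as that of a BED file.

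Genes were those of GENCODE release 44 mapped to GRCh37, with 20163 protein-coding genes. A site belonged to a gene when any of it lay within the stated window of the body. Shares have exact (Clopper-Pearson) 95% intervals. Overlap, window counts and motif searches were tested on simulated data. Sites named were within 100 kb of SCARB1. Named genes were SCARB1, coding genes within 500 kb (some neighbouring genes, and the sites within them, are not reported here), the 5 genes nearest in site numbers (ties by body length), and genes of the cholesterol list with an excess of at least 3 sites of a class. Members, lists and rules were chosen with earlier results of these data known. Alternatives covered windows, overlap rules, list lengths, merging of sites and the motif. Python 3.11.15, pysam 0.24.0 and SciPy 1.17.1 were used.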

Additional observations from a re-analysis of the deposited data

How the results depend on the processing

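No paired analysis was possible because each condition had 1 library, and leaving out a replicate was likewise not possible. For 10 results, 47 values were recomputed, of which 24 changed little (counts and shares by at most a factor of 1.5, the median place within its interval) and 23 moved. Narrower windows gave fewer sites by construction. Within 10 kb there were 4 basal, 10 overexpression, 6 overexpression-only and 0 basal-only sites, and within 50 kb there were 8 basal and 2 basal-only sites. The upper 50% of each list by place held 8 basal sites, of which 4 were basal-only, and 10 overexpression sites, of which 6 were overexpression-only. These 4 basal-only sites are not those of the whole list, which all stood between percentiles 72.3 and 98.1. They are sites shared in the whole lists whose overexpression partners stood in the lower part, so the equal number does not mean that the same sites remained. Set against the whole other list, the upper 50% held 5 overexpression-only and 0 basal-only sites. The number of overexpression-only sites within 100 kb was 14 when an overlap of 50% of both sites was required. The small number of basal-only sites varied most, with 7 under 50% overlap of both sites, and 2 each when neighbours within 500 bp were taken as shared, when sites within 500 bp were merged, and when the basal list was set to the length of the overexpression list. Within 10 kb of SCARB1, the 50% overlap gave 1 basal-only and 7 overexpression-only sites, and the upper 50% of each list gave 1 and 4. The 7-letter motif was in 8 regions. The share of coding genes with at least the numbers of SCARB1 was 0.0645% with a window of 100 kb, 0.198% in the upper 50% of each list, 0.0446% at equal list length, 0.0397% under 50% overlap and 0.0378% among bodies of 50 to 200 kb. The stretch around SCARB1, recomputed under alternatives chosen after seeing the data, held 8 overexpression-only sites under 50% overlap and 4 in the upper 50% of each list. Because the lists give no read counts, a site called in 1 list only may differ little in signal between the libraries.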
